A study of Mus musculus with 12 samples.

Results

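HOXA9+MDHD cells carried a Hoxa9 vector together with Meis1 from which the homeodomain had been deleted, and they are described here against HOXA9+MIY cells, which carried the same Hoxa9 vector with the empty vector MIY. Both groups were primary bone marrow cultures from female C57B/6 mice aged 12 weeks and treated with 5-FU (5-fluorouracil, which spares slowly dividing progenitors), transduced with MSCV retroviral constructs and grown in DMEM with 15% FCS, IL3, SCF and IL6. The arrays were chosen by their labels: 8 of the 12 arrays of the study, 4 per group, with 2 taken at week 3 and 2 at week 4 of culture. The other 4 arrays came from HOXA9+MEIS1 cells, with Hoxa9 and full-length Meis1 in the same kind of culture, and they enter here for the shared estimate of spread and for the test of where both forms of Meis1 differed. Overexpressed Hoxa9 was thus common to all groups, the controls included, and no group without it is described. The constructs are retroviral and the arrays read a whole culture, so each value is an average over its cells. The labels call the experiments of a group independent but do not say whether the week 3 and week 4 arrays came from separate cultures, so p-values measure only the spread between these arrays.

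Meis1 is a homeodomain protein of the TALE class. It binds DNA together with Pbx proteins and with Hox proteins such as Hoxa9, holding Pbx through its N-terminal part and DNA through its homeodomain, and it speeds the leukaemia that Hoxa9 causes in mouse marrow. The comparison asks which genes respond to Meis1 when the part that binds DNA is missing.

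Values are log2 gene values, made from the exon-level probe sets of each gene, so a step of 1 is a doubling. Array values are given in the order week 3 number 1, week 3 number 2, week 4 number 1, week 4 number 2, and an error after ± is limma's standard error of the log2 difference unless SD is named. A gene is called when its limma p, adjusted by Benjamini-Hochberg over all 20711 genes tested, is under 0.05.

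The vector genes were read first. Hoxa9 stood at 13.35, 13.33, 13.22 and 13.26 in HOXA9+MIY and at 13.35, 13.46, 13.41 and 13.18 in HOXA9+MDHD. The groups overlapped, the difference was 0.06 ± 0.047 (adjusted p = 0.679), and 0 of its 7 probe sets was called. Meis1 was at 6.84, 6.80, 6.96 and 6.77 in HOXA9+MIY and at 9.59, 9.11, 9.74 and 9.29 in HOXA9+MDHD, with no overlap. Of the 23 Meis1 probe sets, 13 were called higher in HOXA9+MDHD, and in 7 the rise was over 16-fold. In each of these 7 the difference between the full-length and the deleted form was not called. Of all 318760 probe sets that name 1 gene, 1.22% were called either way. A further 3 probe sets were over 16-fold up only with full-length Meis1. They were lower in HOXA9+MDHD than in HOXA9+MEIS1 by log2 3.82, 5.33 and 5.66. One of these 3 read 9.21, 6.83, 8.53 and 5.74 on the HOXA9+MDHD arrays, so that both arrays of number 1 lay above both of number 2. It was not called against HOXA9+MIY (0.87, adjusted p = 0.615). Another read 8.62, 7.09, 8.06 and 5.84, in the same order, and was called higher than in HOXA9+MIY (1.63, adjusted p = 0.0403). The third read 9.07, 8.95, 9.43 and 8.83, against 6.35, 6.47, 6.95 and 6.86 in HOXA9+MIY. Its groups did not overlap, and it was called higher (2.41, adjusted p = 2.62e-07). The positions of these probe sets along Meis1 were not used here, and the origin of this signal in HOXA9+MDHD was not tested.

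**Figure D1:**
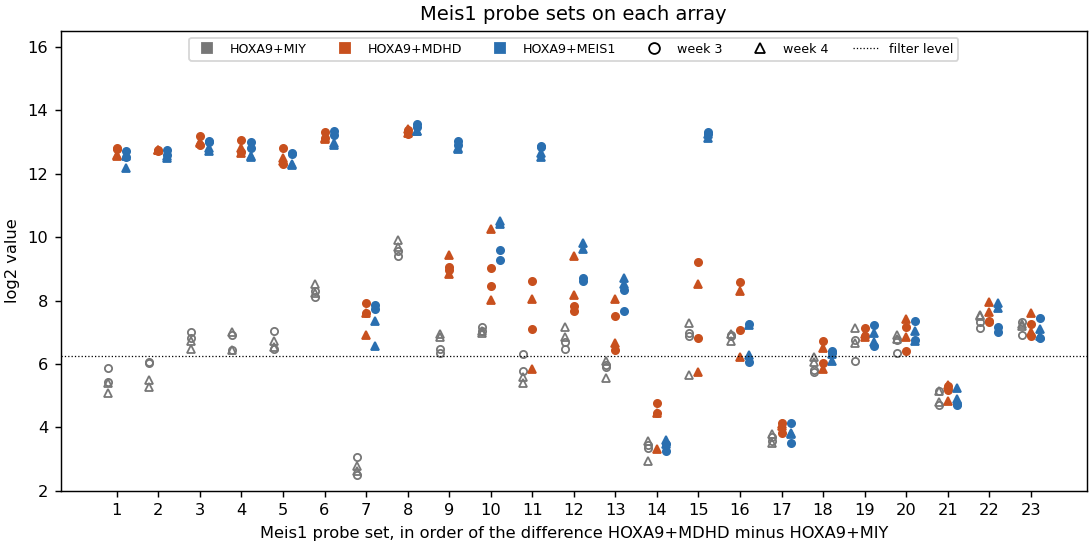
Log2 value of each of the 23 Meis1 probe sets (x axis, ordered by the difference between HOXA9+MDHD and HOXA9+MIY) on each array (y axis), coloured by group, with circles for week 3 and triangles for week 4. The first 7 probe sets sit together in both Meis1 groups far above HOXA9+MIY, and probe sets 9, 11 and 15 lie above 12 only with full-length Meis1.

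The HOXA9+MDHD array of week 4 number 2 stood apart from the other 3 of its group. Over the genes called higher, the median shift from the HOXA9+MIY arrays of the same week was 0.60, 0.60 and 0.72 on the other 3 arrays and 0.37 on this one. Over the genes called lower it was -0.57, -0.66 and -0.65 against -0.39. Its Meis1 level, 9.29, lay within the range of its group. On the 3 Meis1 probe sets over 16-fold up only with full-length Meis1 it was the lowest of its group, at 8.83, 5.84 and 5.74. The values 5.84 and 5.74 lay within the HOXA9+MIY range of their probe sets. A link of this signal to the array's position was not tested. Because the array stood apart, counts over gene lists are given with and without it where it moves them. This array was singled out by its nearness to HOXA9+MIY over the called genes. Leaving it out therefore tends to enlarge differences, and values and p-values without it are a description and no added support. Between all pairs of the 12 arrays, Pearson correlations over the probe sets were 0.9671 to 0.9845.

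In HOXA9+MDHD against HOXA9+MIY 396 genes were called, 1.91% of those tested, with 189 higher (0.913%) and 207 lower (0.999%). The 189 include Meis1 itself, which the vector delivers. Among the genes that rose were Cd34, Angpt1, Gpr56 and Erg, and among those that fell were Retnlg, Ltf, Ctss, Ly86 and the stem cell antigen Ly6a. Late neutrophil genes had 11 falls and 0 rises of 28 measured, and monocyte and macrophage genes 8 falls and 2 rises of 32. Surface genes of early progenitors, a list that also holds the secreted ligand Angpt1, had 4 rises and 1 fall of 17. The lists were chosen with earlier results of these data known, so these counts are a description. Most changes were small. The median size among called genes was 0.60, the median over all genes was -0.01, and 68 called genes (0.328%) changed at least 2-fold, 33 up and 35 down. Of the 396, 394 went one way in all 4 pairs of the same week and number, and all 396 had one sign at both weeks. The genes were called on these same arrays, so such agreement in sign follows largely from the call and is no added support. In 130 of the 189 all HOXA9+MDHD arrays lay above all HOXA9+MIY arrays (1.62% of all genes did so), and in 144 of the 207 all lay below (2.56%).

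Single arrays moved these counts. Without week 4 number 2 of HOXA9+MDHD there were 992 calls, 464 higher (2.24%) and 528 lower (2.55%), and 388 of the 396 were among them. Leaving out any one of the other 7 arrays of both groups gave 140 to 254 calls. Of the 396, 121 held in each of the 12 fits without 1 array. Week 3 arrays alone gave 240 calls and week 4 arrays alone 11. A test of whether the effect differed between the weeks called 0 genes (997 at an unadjusted p under 0.05), with 30 without the HOXA9+MDHD array of week 3 number 1 and 16 without that of week 4 number 1.

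**Figure D2:**
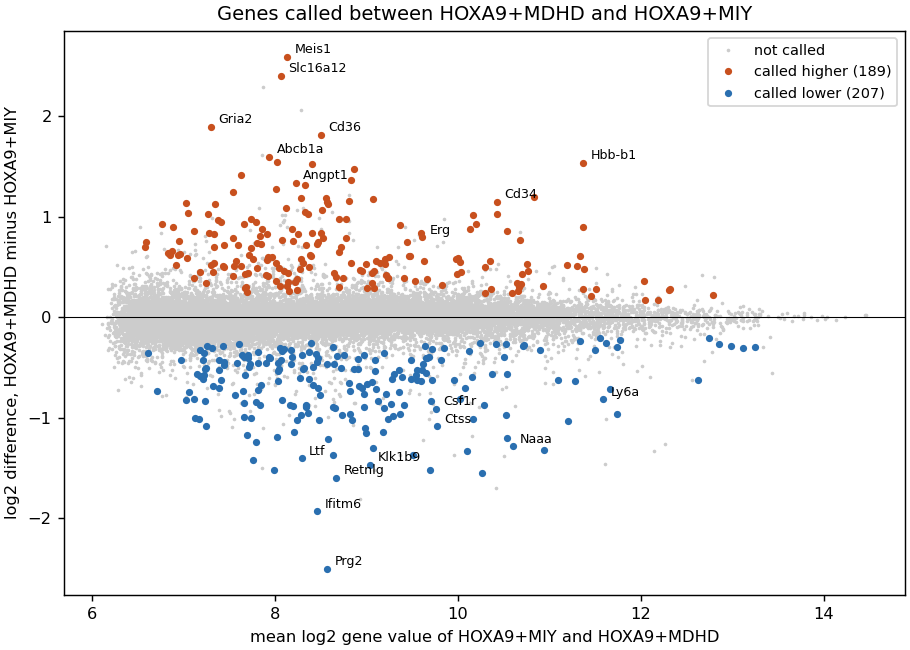
Log2 difference HOXA9+MDHD minus HOXA9+MIY (y axis) against the mean log2 level of both groups (x axis), 1 point per gene, n = 4 arrays per group. The 189 genes called higher and the 207 called lower are coloured, and among them Meis1, Slc16a12 and Prg2 lie farthest out.

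Surface genes of stem and early progenitor cells were measured for 17 of the 20 listed, and 4 rose while 1 fell, with a median difference of 0.25, where 0.913% of all genes rose and 0.999% fell. Cd34, a sialomucin of early progenitors, read 9.51, 9.85, 9.78 and 10.25 in HOXA9+MIY and 11.02, 10.88, 11.33 and 10.75 in HOXA9+MDHD. The groups did not overlap, and Cd34 was 2.22-fold higher (1.15 ± 0.176, adjusted p = 0.00816). Angpt1, on the list as the secreted ligand of the Tek receptor and not itself a surface protein, read 7.72, 7.83, 7.28 and 7.41 against 9.32, 9.08, 9.29 and 7.90. Of the HOXA9+MDHD arrays, week 4 number 2 alone stood close to the controls, and the difference was 1.34 ± 0.212 (adjusted p = 0.00861), or 1.62 without that array. Gpr56, an adhesion receptor now named Adgrg1, read 10.47, 10.69, 11.17 and 11.34 against 11.84, 11.44, 12.31 and 11.69. Its level was higher at week 4 in both groups, and it rose by 0.90 ± 0.129 (adjusted p = 0.00639). The fourth riser was Procr, the protein C receptor of stem cells and endothelium, at 0.40 (adjusted p = 0.0299).

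Ly6a, the Sca-1 antigen of mouse stem cells, went the other way. It read 12.21, 12.23, 11.57 and 11.98 in HOXA9+MIY and 11.51, 11.14, 10.86 and 11.21 in HOXA9+MDHD. The groups did not overlap, and Ly6a was 1.76-fold lower (-0.82 ± 0.147, adjusted p = 0.0167), a call kept in 8 of 12 fits without 1 array. With full-length Meis1, Ly6a fell by 3.01, and the difference between the forms was called (-2.19, adjusted p = 5.57e-06). Kit, the receptor of SCF, stood at 9.96 ± 0.126 (SD, n = 4) with the empty vector against 10.27 ± 0.340 with the deleted form, a difference that did not pass the test (adjusted p = 0.439). Both Kit means were above 6.2592, the filter level of the probe sets. Gene values were made only from probe sets above that level, so this does not identify a cell type. Prom1, the CD133 antigen, differed by -1.06 and just missed the threshold (adjusted p = 0.0516). The list counted 6 higher and 2 lower without week 4 number 2 (2.24% and 2.55% of all genes), and over the 12 fits without 1 array 3 to 6 higher and 0 to 2 lower.

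Flt3, the FLT3 ligand receptor of multipotent progenitors and a gene long tied to Meis1, read 6.77, 6.90, 6.82 and 6.67 in HOXA9+MIY and 7.85, 7.48, 7.74 and 6.79 in HOXA9+MDHD. On 3 arrays it was above every control, and on week 4 number 2 it lay within their range. The difference, 0.67 ± 0.172, missed the threshold (adjusted p = 0.0748), so Flt3 is not called. Without that array the difference was 0.89 (adjusted p = 0.000582), in a fit that dropped the array nearest to the controls. Full-length Meis1 gave a difference of 3.17, and that between the forms was 2.50 (adjusted p = 6.95e-06).

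Stem and progenitor transcription factors were all measured, and 3 of 22 rose (0.913% of all genes) and 0 fell, with a median of 0.07. Erg, an ETS factor needed by blood stem cells, read 8.90, 9.16, 9.32 and 9.49 in HOXA9+MIY and 9.93, 9.91, 10.31 and 9.90 in HOXA9+MDHD. The groups were clear of each other on every array, with a rise of 1.74-fold (0.80 ± 0.101, adjusted p = 0.0037) that held in all 12 fits without 1 array. Zfpm1, the Gata1 cofactor Fog1, read 8.08, 8.13, 8.14 and 8.01 against 8.60, 8.67, 9.07 and 8.48 and rose by 0.61 ± 0.102 (adjusted p = 0.0114). Evi1, a zinc finger factor of stem cells now named Mecom, read 6.97, 6.94, 7.06 and 7.20 against 7.57, 7.81, 7.65 and 7.22. The last array was just above the highest control, the difference was 0.52 ± 0.108 (adjusted p = 0.0318), and the call held in 6 of 12 such fits. With full-length Meis1 Evi1 stood at 6.82 ± 0.0246 (SD, n = 4), 0.22 below HOXA9+MIY, and the forms differed by -0.74 (adjusted p = 0.00188). Gata2 (0.84, adjusted p = 0.0748) did not pass the test. Of the 22, 6 rose without week 4 number 2 (2.24% of all genes), and over the 12 fits without 1 array 2 to 6.

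Among 18 RNA-binding and self-renewal genes 1 rose and 0 fell (median 0.02). It was Msi2, an RNA-binding protein of blood stem cells, with 9.73, 9.70, 9.53 and 9.79 against 10.49, 10.31, 10.48 and 9.78. On week 4 number 2 it was at the control level, and the difference of 0.58 ± 0.124 (adjusted p = 0.0359) kept its call in 1 of 12 fits without 1 array, the one without that array (0.73, adjusted p = 0.000361). Of 26 genes that earlier studies link to Meis1 or Hoxa9, 5 rose (Cd34, Angpt1, Erg, Evi1 and Msi2) and 0 fell, with a median of 0.02, where 0.913% of all genes rose. Like the other lists, this one was chosen with earlier results of these data known, so its count is a description. When week 4 number 2 was left out, 10 rose and 2 fell (2.24% and 2.55% of all genes), and over the 12 fits without 1 array 3 to 10 rose. Among 10 TALE genes the 1 called was Meis1, which the vector delivers, so no other member was called. Without week 4 number 2, 2 were higher. Of 18 Hoxa and Hoxb genes 0 were called in limma's test, here and in each of the 12 fits without 1 array, with differences from -0.18 to 0.10.

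**Figure D3:**
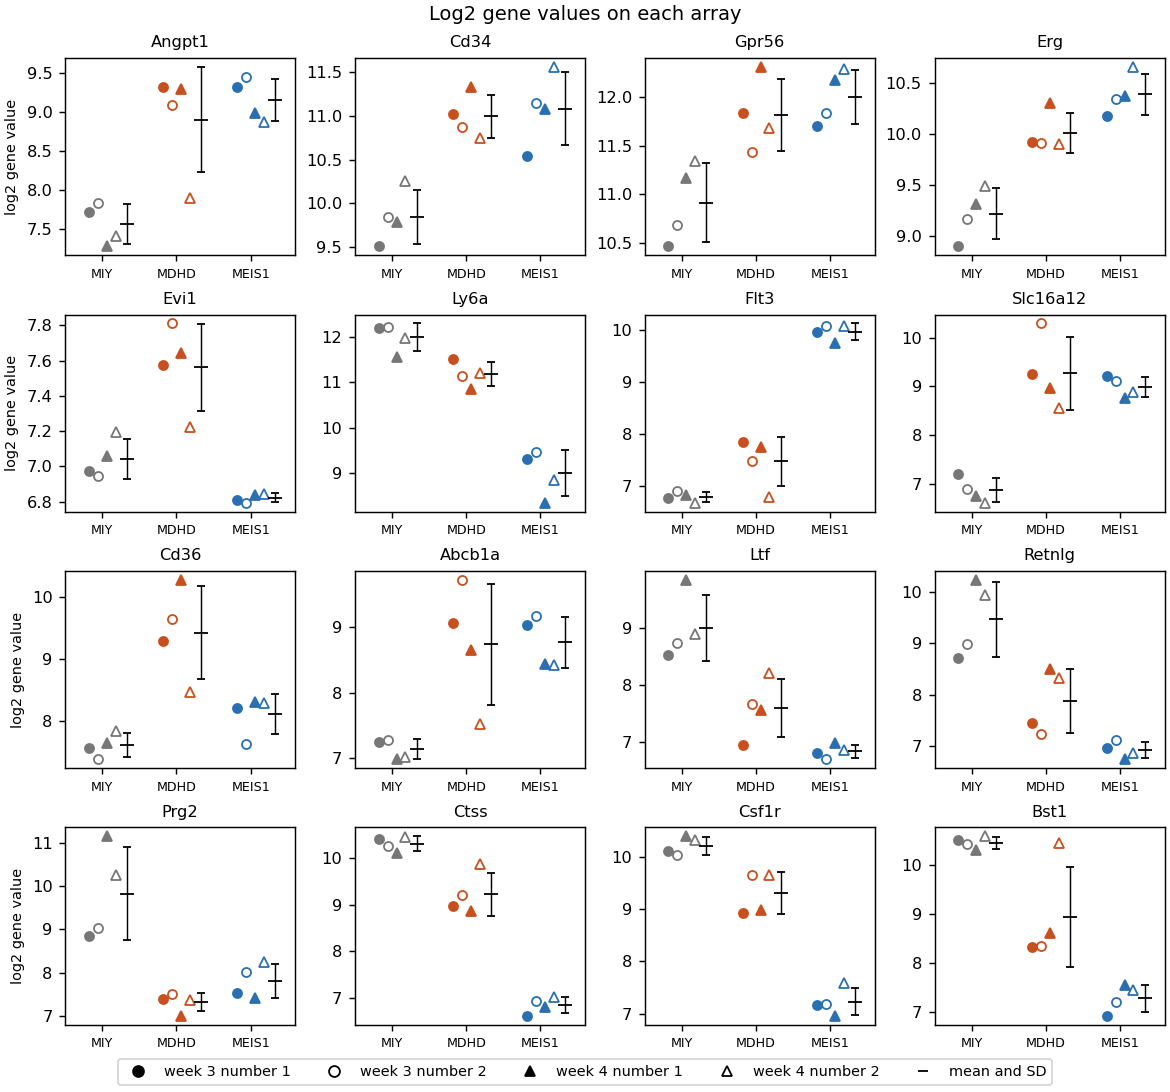
Log2 gene value (y axis) of 16 genes on each array by group (x axis), with circles for week 3, triangles for week 4, filled for number 1 and open for number 2, and the mean with SD at the side of each group (n = 4). Cd34, Erg and Gpr56 are higher and Ltf, Retnlg, Prg2 and Ctss lower on every HOXA9+MDHD array than on every HOXA9+MIY array, and the open triangle of HOXA9+MDHD lies nearest to the controls for Angpt1, Abcb1a, Flt3 and Bst1.

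The largest called rise after Meis1 itself was that of Slc16a12, a monocarboxylate and creatine transporter. It read 7.19, 6.89, 6.76 and 6.61 in HOXA9+MIY and 9.26, 10.29, 8.96 and 8.56 in HOXA9+MDHD, 5.30-fold higher (2.40 ± 0.206, adjusted p = 0.000422). Every array of one group lay more than 1 log2 unit from every array of the other. Gria2, an AMPA glutamate receptor subunit, read 6.22, 6.07, 6.63 and 6.52 against 8.29, 8.52, 8.76 and 7.44, and all 27 of its probe sets were higher. It was 3.72-fold up (1.90 ± 0.292, adjusted p = 0.0082), with 2 control arrays below the filter level.

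Cd36, a scavenger receptor for fatty acids and oxidised lipoproteins, read 7.55, 7.38, 7.64 and 7.84 in HOXA9+MIY and 9.29, 9.64, 10.27 and 8.47 in HOXA9+MDHD. No arrays overlapped, and Cd36 rose 3.52-fold (1.82 ± 0.292, adjusted p = 0.00932), or by 2.21 without week 4 number 2. Full-length Meis1 left it at 0.50 above HOXA9+MIY, and the forms differed by -1.32 (adjusted p = 0.0235). Stxbp6, a regulator of SNARE-mediated secretion, read 8.39, 8.30, 7.71 and 8.12 against 9.55, 10.40, 9.80 and 8.66 and rose by 1.47 ± 0.235 (adjusted p = 0.00881). Scin, an actin-severing protein, read 8.64, 8.98, 7.48 and 7.51 against 10.09, 10.20, 8.97 and 8.81 and rose by 1.36 ± 0.214 (adjusted p = 0.00834). Scin was lower at week 4 in both groups, so that its groups overlap across the weeks but not within either. Btla, an inhibitory receptor of lymphocytes, read 7.76, 7.85, 7.58 and 7.51 against 9.32, 9.16, 9.32 and 8.15 and rose by 1.31 ± 0.189 (adjusted p = 0.00643). With full-length Meis1 the differences from HOXA9+MIY were 0.21, -0.20 and 0.46. The test between the forms called each, at -1.26 for Stxbp6 (adjusted p = 0.00883), -1.56 for Scin (adjusted p = 0.00123) and -0.85 for Btla (adjusted p = 0.0232).

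Abcb1a and Abcb1b, the 2 mouse genes of the drug efflux pump P-glycoprotein, were the 2 genes called higher among 19 ABC transporters, with 0 lower and a list median of 0.01. Leaving out week 4 number 2 gave 2 higher and 4 lower, where 2.24% and 2.55% of all genes were called, and over the 12 fits without 1 array 1 to 2 higher and 0 to 4 lower. Abcb1a read 7.25, 7.28, 6.99 and 7.03 against 9.06, 9.71, 8.66 and 7.52, a rise of 3.03-fold (1.60 ± 0.246, adjusted p = 0.00816). Abcb1b read 7.09, 7.08, 6.42 and 6.42 against 8.01, 8.85, 7.48 and 6.79 (1.03 ± 0.204, adjusted p = 0.0264). In both, week 4 number 2 was the lowest of its group, and the call of Abcb1b held in 7 of 12 fits without 1 array. With full-length Meis1 the differences were 1.63 and 0.87, and the test between the forms gave adjusted p = 0.976 and 0.83. The genes are close relatives, so signal shared between their probe sets was not tested.

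Auts2, a partner of Polycomb complexes, read 7.24, 7.27, 7.56 and 7.41 against 8.60, 8.71, 8.98 and 8.30, with all 43 probe sets higher and a rise of 1.28 ± 0.130 (adjusted p = 0.00106). Plcb4, a phospholipase C, had the smallest p among named risers other than Meis1: 6.81, 7.13, 6.76 and 6.88 against 7.90, 8.07, 7.82 and 7.68 (0.97 ± 0.0797, adjusted p = 0.000397). Full-length Meis1 raised Plcb4 further, by 1.73, with a called difference of 0.76 between the forms (adjusted p = 0.000172). Akr1c18, which inactivates progesterone, read 9.76, 10.09, 10.50 and 10.59 against 11.64, 10.90, 11.85 and 11.33. It rose 2.30-fold (1.20 ± 0.159, adjusted p = 0.00414), and by 2.13 with the full-length form. Smaller rises were those of Pla2g4a, the phospholipase that frees arachidonic acid (0.52 ± 0.0600), Celsr1, a cadherin of planar cell polarity (0.54 ± 0.0607), Hipk2, a nuclear kinase (0.59 ± 0.0698), and Slc39a14, a zinc and iron importer (0.56 ± 0.0695). Their adjusted p-values were 0.003, 0.00296, 0.003 and 0.0037. The groups overlapped across the weeks for Celsr1 and Slc39a14 and not for Pla2g4a and Hipk2.

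The called genes that full-length Meis1 raised furthest beyond the deleted form included Me1, Slc22a3 and Gucy1a3. Me1, the cytosolic malic enzyme, read 6.42, 6.62, 6.55 and 6.45 in HOXA9+MIY and 6.98, 7.05, 7.33 and 7.25 in HOXA9+MDHD, without overlap. It rose by 0.64 ± 0.136 (adjusted p = 0.0344, called in 6 of 12 fits without 1 array), against 3.48 with full-length Meis1, and the difference between the forms was 2.83 (adjusted p = 7.99e-07). Slc22a3, an organic cation transporter, rose by 0.83 with the deleted and 2.74 with the full-length form, and Gucy1a3, a subunit of soluble guanylate cyclase, by 0.90 and 2.43. Both differences between the forms were called (adjusted p = 0.000124 and 0.000775). The calls of Slc22a3 and Gucy1a3 against HOXA9+MIY each held in 2 of 12 fits without 1 array.

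Among all genes, 902 differed between HOXA9+MEIS1 and HOXA9+MDHD (4.36%), or 539 in a fit of those 8 arrays alone. Of the 396 genes called here, 119 were among the 902. Of those called higher here, the full-length form took 26 further and left 20 less raised, and of those called lower it took 56 further and left 17 less lowered. The contrasts share the HOXA9+MDHD arrays, so the counts are a description. The other 277 did not pass the test between the forms, which does not show that the forms act alike on them.

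Late neutrophil genes, which encode granule and surface proteins of maturing neutrophils, formed the list with the most calls. Of 31 listed, 28 were measured, 11 fell, 0 rose, and the median was -0.86, where 0.999% of all genes fell. With full-length Meis1 24 of the 28 fell, where 5.55% of all genes fell and 5.29% rose. In bulk arrays, fewer cells of a type and less RNA per cell cannot be told apart. The list's median shift from the same-week controls was -0.82, -1.10, -1.08 and -0.43 on the 4 HOXA9+MDHD arrays, smallest on week 4 number 2. Without that array 20 of 28 fell (2.55% of all genes), and over the 12 fits without 1 array the count was 7 to 20.

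Ifitm6, an interferon-inducible membrane protein family member of marrow myeloid cells, read 9.79, 9.66, 9.01 and 9.25 in HOXA9+MIY and 7.70, 7.43, 6.85 and 8.01 in HOXA9+MDHD. The groups did not overlap, and it fell 3.81-fold (-1.93 ± 0.255, adjusted p = 0.00403). Retnlg, a resistin-like secreted protein of neutrophils, read 8.72, 8.99, 10.24 and 9.94 against 7.45, 7.23, 8.49 and 8.32. It was higher at week 4 in both groups and lower in HOXA9+MDHD at each week (-1.60 ± 0.247, adjusted p = 0.0082). Ltf, lactoferrin of the secondary granules, read 8.52, 8.73, 9.84 and 8.90 against 6.95, 7.66, 7.56 and 8.21 and fell 2.65-fold (-1.40 ± 0.219, adjusted p = 0.0082). Chi3l3, the chitinase-like protein Ym1, read 10.17, 10.72, 11.86 and 11.44 against 9.38, 8.10, 9.90 and 10.57. Its groups overlapped across the weeks, and its fall of 1.56 ± 0.341 on the log2 scale (adjusted p = 0.0395) kept its call in 3 of 12 fits without 1 array.

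Of the formyl peptide receptors, which guide neutrophils to bacterial peptides, Fpr1 read 7.73, 8.03, 9.13 and 8.98 against 6.82, 6.61, 7.12 and 7.65. It rested on 1 probe set and fell by 1.42 ± 0.214 on the log2 scale (adjusted p = 0.00767). Fpr2 was called 2.00-fold lower (adjusted p = 0.00482), but with a stricter filter on dim probe sets its value was 0.23 and not called, so its direction depends on the filter. Of its 3 probe sets 1 had a difference above 0. The other falls of the list were those of Csf3r, Stfa2l1, Itgb2l, Lcn2 and Camp, the last the cathelicidin precursor at -0.46. S100a8 and S100a9, the calprotectin subunits, differed by -1.33 and -1.70 without passing the test (adjusted p = 0.172 and 0.0887), with SDs over the HOXA9+MDHD arrays of 1.25 and 1.43.

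Of the primary granule genes, made earlier in neutrophil development, 2 of 15 fell (0.999% of all genes), 0 rose, and the median was -0.16. Prtn3, the serine protease proteinase 3, read 13.43, 13.48, 13.38 and 13.30 against 13.21, 12.97, 13.06 and 13.17 (-0.29 ± 0.0569, adjusted p = 0.0230). The arrays did not overlap, and the call held in 8 of 12 fits without 1 array. Fcnb, ficolin B, read 9.46, 9.88, 10.11 and 9.57 against 8.39, 7.63, 8.92 and 9.51, with week 4 number 2 inside the control range, and its call (-1.14, adjusted p = 0.0472) held in 1 of 12 fits without 1 array, the one without that array (-1.39, adjusted p = 0.00386). Mpo, myeloperoxidase, stood at 12.89 ± 0.0951 (SD, n = 4) against 11.63 ± 0.493 and was not called (adjusted p = 0.0568). Of the 15, 5 fell without week 4 number 2 (2.55% of all genes), and over the 12 fits without 1 array 0 to 5.

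Monocyte and macrophage genes were all measured, and 8 of 32 fell and 2 rose (0.999% and 0.913% of all genes), with a median of -0.24. The median shift was -0.63, -0.21 and -0.50 on 3 HOXA9+MDHD arrays and 0.03 on week 4 number 2, without which 14 fell and 2 rose (2.55% and 2.24% of all genes). Over the 12 fits without 1 array 3 to 14 fell. Ly86, the MD-1 partner of the receptor Rp105, read 8.82, 8.75, 8.13 and 7.96 against 7.27, 6.99, 7.15 and 7.29. No arrays overlapped, and it fell 2.36-fold (-1.24 ± 0.149, adjusted p = 0.003). Ctss, the lysosomal protease cathepsin S, read 10.40, 10.26, 10.12 and 10.46 against 8.97, 9.20, 8.86 and 9.88 and fell 2.12-fold (-1.08 ± 0.180, adjusted p = 0.0114). With full-length Meis1 Ctss fell by 3.46, a called difference of -2.38 from the deleted form (adjusted p = 1.81e-05). Csf1r, the receptor of M-CSF, read 10.11, 10.04, 10.40 and 10.34 against 8.93, 9.66, 8.99 and 9.65. It fell by 0.91 ± 0.179 on the log2 scale (adjusted p = 0.0248), a call kept in 6 of 12 fits without 1 array, while with full-length Meis1 it fell by 2.99. The 2 genes of the list that rose were Cd36 and Emr1, the F4/80 antigen of macrophages (0.61 with the deleted form, adjusted p = 0.0082).

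Of 22 lipid handling genes, Cd36 and Me1 rose and Apoe, Apoc2 and Pparg fell, with a median of -0.04, where 0.913% of all genes rose and 0.999% fell. Without week 4 number 2, 2 rose and 6 fell (2.24% and 2.55% of all genes), and over the 12 fits without 1 array 1 to 2 rose and 2 to 6 fell. Apoe, apolipoprotein E, read 9.68, 9.47, 9.15 and 9.56 against 8.94, 8.79, 8.67 and 8.60 and fell by 0.72 ± 0.0844 on the log2 scale (adjusted p = 0.003). Apoc2, the activator of lipoprotein lipase, read 12.44, 12.09, 12.12 and 12.23 against 11.30, 11.13, 11.12 and 11.49. Its fall of 0.96 ± 0.140 on the log2 scale (adjusted p = 0.00681) left no overlap, and with full-length Meis1 it fell by 3.27. Naaa, a lysosomal amidase of N-acylethanolamines, had the smallest p of the falls: 11.49, 11.44, 10.95 and 11.08 against 10.21, 9.82, 9.68 and 10.12 (-1.29 ± 0.116, adjusted p = 0.000542).

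**Figure D4:**
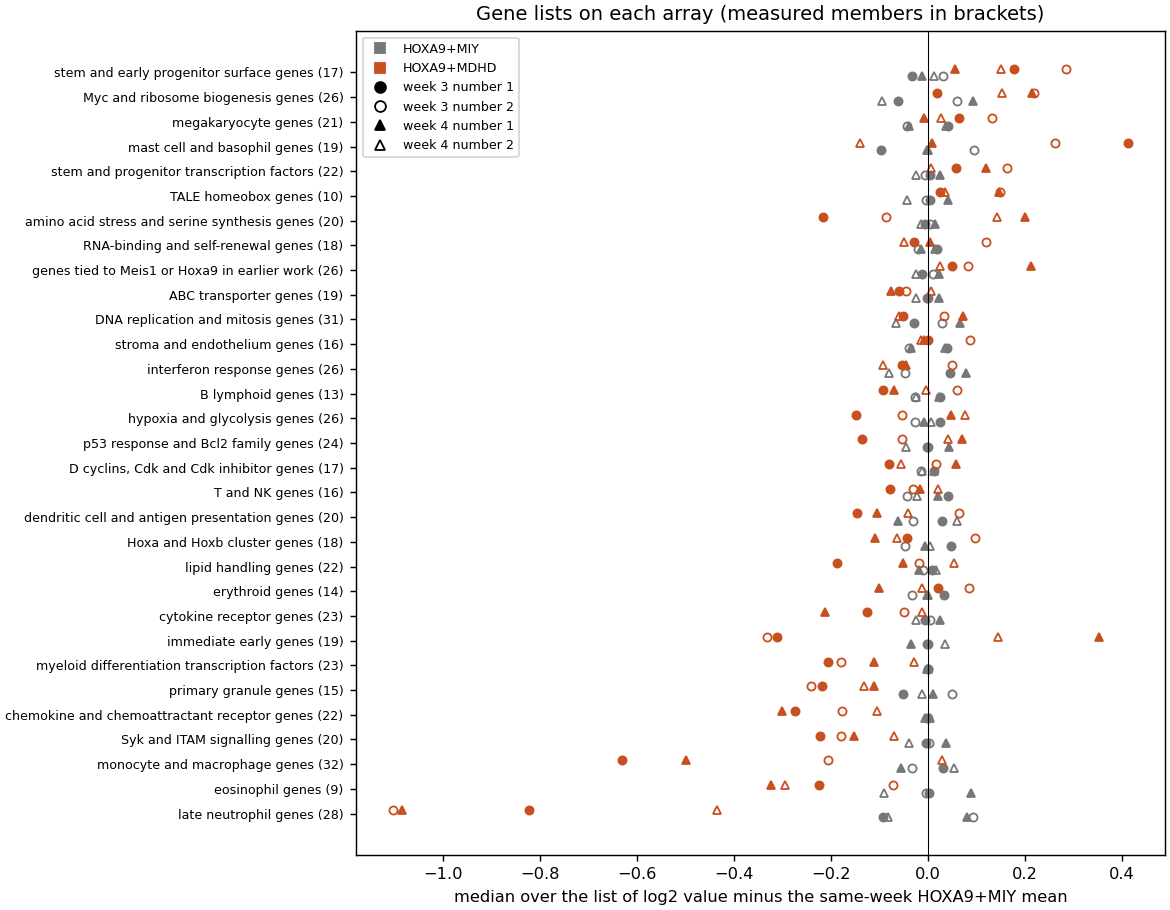
Median over each gene list of the log2 value minus the same-week HOXA9+MIY mean (x axis) on each HOXA9+MIY and HOXA9+MDHD array, with lists on the y axis ordered by the median difference of the fit and the measured members in brackets. Late neutrophil genes lie at -0.82, -1.10, -1.08 and -0.43 on the HOXA9+MDHD arrays, and most other lists lie close to 0.

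Cytokine receptor genes counted 5 falls (0.999% of all genes) and 0 rises of 23, with a median of -0.06. They were Csf1r, Csf2ra, Csf3r, Il6ra and Il6st, of which the last encodes the shared signalling chain of the IL6 family. Il6st read 9.59, 9.73, 8.69 and 8.89 against 8.20, 8.70, 7.50 and 8.61 and fell by 0.97 ± 0.208 on the log2 scale (adjusted p = 0.0359), a call kept in 2 of 12 fits without 1 array. Csf2ra, the GM-CSF receptor alpha chain, read 9.86, 9.89, 9.75 and 9.76 against 9.29, 9.18, 9.10 and 9.57 (-0.53 ± 0.0944, adjusted p = 0.0166). Csf3r, the G-CSF receptor, read 9.76, 9.88, 9.89 and 9.66 against 9.21, 9.26, 8.93 and 9.34 (-0.61 ± 0.117, adjusted p = 0.0221). The groups did not overlap for Csf2ra and Csf3r, whose calls held in 9 and 6 of 12 fits without 1 array. The receptors of IL3, which the medium held, did not pass the test, with Il3ra at -0.03 (adjusted p = 0.902) and Csf2rb at -0.01 (adjusted p = 0.965). Over the 12 fits without 1 array the list counted 1 to 7 falls. Without week 4 number 2 of HOXA9+MDHD it had 7 falls and 1 rise (2.55% and 2.24% of all genes).

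Syk and ITAM signalling genes, which relay signals of Fc and lectin receptors, counted 3 falls of 20 (median -0.19), where 0.999% of all genes fell: Trem3, Clec4a2 and Fcgr1. Without week 4 number 2, 8 of the 20 fell (2.55% of all genes), and over the 12 fits without 1 array 0 to 8. Chemokine and chemoattractant receptor genes counted 4 falls of 22 (0.999% of all genes; median -0.18): Fpr1, Fpr2, Ccl6 and C5ar1, with the exception given above for Fpr2. The count was 2 to 5 over the 12 fits without 1 array and 5 without week 4 number 2. C5ar1, the complement C5a receptor, read 8.25, 8.12, 8.50 and 8.21 against 7.07, 7.23, 7.17 and 8.12, so that week 4 number 2 lay at the lowest control. It fell by 0.88 ± 0.184 on the log2 scale (adjusted p = 0.0334) and by 1.11 without that array. Ccl6, a myeloid chemokine, read 11.59, 11.66, 11.77 and 11.85 against 10.26, 9.87, 10.89 and 11.71, again with the last array in the control range (-1.03, adjusted p = 0.0357, and -1.30 without it). The calls of C5ar1, Ccl6 and Clec4a2 each held in 3 of 12 fits without 1 array, that of Fcgr1 in 2 and that of Trem3 in 8. Myeloid differentiation transcription factors counted 0 of 23 calls, with a median of -0.15 and 4 falls without week 4 number 2 (2.55% of all genes). Klf4, a factor of monocyte development, read 8.62, 8.58, 7.30 and 7.36 against 7.10, 7.10, 6.87 and 7.06 and missed the threshold (-0.93 ± 0.218, adjusted p = 0.0531).

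The largest fall of all called genes was that of Prg2, the major basic protein of eosinophil granules. It read 8.86, 9.04, 11.15 and 10.25 in HOXA9+MIY and 7.39, 7.50, 7.01 and 7.37 in HOXA9+MDHD, 5.68-fold lower (-2.51 ± 0.370, adjusted p = 0.00686). The HOXA9+MIY arrays were higher at week 4 and the HOXA9+MDHD arrays were not, and the test of the week difference gave adjusted p = 0.683. Prg2 was the 1 call among 9 measured eosinophil genes (median -0.26), where 0.999% of all genes fell. Prss34, a mast cell and basophil protease, was the 1 call among 19 mast cell and basophil genes, at 8.19, 8.42, 8.85 and 8.85 against 8.13, 7.92, 7.86 and 8.01 (-0.60 ± 0.115, adjusted p = 0.0221), while the list median was 0.11, and its call held in 7 of 12 fits without 1 array. That list had 3 rises and 1 fall without week 4 number 2, where 2.24% and 2.55% of all genes were called.

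Bst1, the ADP-ribosyl cyclase CD157, read 10.52, 10.43, 10.30 and 10.59 in HOXA9+MIY and 8.33, 8.34, 8.62 and 10.46 in HOXA9+MDHD. On 3 arrays it was lower by more than 1 log2 unit, and on week 4 number 2 it was at the control level. The difference of -1.52 ± 0.328 (adjusted p = 0.0378) became -1.99 without that array (adjusted p = 6.01e-06), and the call was lost in the other 11 fits without 1 array. St6gal1, which adds sialic acid to glycoproteins, read 9.49, 9.04, 9.33 and 9.43 against 7.70, 7.72, 7.82 and 8.57 and fell 2.58-fold (-1.37 ± 0.169, adjusted p = 0.0037). Its groups did not overlap, and the full-length form gave -1.34. Il1f9, a cytokine of the IL1 family, read 10.32, 10.37, 11.32 and 11.05 against 9.03, 9.03, 9.98 and 9.68 and fell by 1.34 ± 0.169 on the log2 scale (adjusted p = 0.0037), by nearly equal steps at both weeks. Hopx, a small homeodomain protein that does not bind DNA, read 9.57, 9.36, 9.87 and 9.79 against 8.56, 8.56, 8.71 and 9.16 (-0.90 ± 0.107, adjusted p = 0.003). Lrrc8b, a subunit of volume-regulated anion channels, fell by 0.87 ± 0.0998 on the log2 scale (adjusted p = 0.003) and further than with full-length Meis1 (-0.44, difference between the forms 0.43, adjusted p = 0.0290).

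A cluster of kallikrein genes, serine proteases of the Klk1b family, fell together. Klk1b9 read 9.55, 9.41, 10.15 and 9.99 against 8.60, 7.19, 8.41 and 9.04 (-1.47 ± 0.250, adjusted p = 0.0126). Klk1b1 read 10.19, 9.87, 10.37 and 10.34 against 9.00, 7.88, 8.85 and 9.57 (-1.37 ± 0.223, adjusted p = 0.0101). Klk1b11 read 11.65, 11.30, 11.76 and 11.70 against 10.46, 9.46, 10.25 and 10.94 (-1.33 ± 0.206, adjusted p = 0.0082). In each, week 3 number 2 was the lowest array and no HOXA9+MDHD array reached a control. With full-length Meis1 the differences were -3.08, -3.37 and -3.34, further below HOXA9+MIY than with the deleted form (adjusted p = 0.00277, 0.000279 and 0.000152). The genes are close copies, so signal shared between their probe sets is possible and was not tested.

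TGACAG is the core motif that Meis and Pknox homeodomains bind, and it was searched on both strands (as TGACAG or CTGTCA) in RefSeq promoter windows of GRCm38.p6, 300 bases around each start, since the homeodomain is what HOXA9+MDHD lacks. A window held the motif in 28 of 182 windows of genes called higher (15.4%), 37 of 200 of genes called lower (18.5%) and 3545 of 19514 of all genes tested (18.2%). Windows were matched by symbol for 140 of 189, 162 of 207 and 15972 of 20711 genes. The shares lay close together, and a match is a run of letters and not a bound site. The windows of Erg, with the motif on both strands, of Abcb1a, and of the 3 kallikreins named above are shown. They are given 5′ to 3′ on the gene's strand, with the motif in capitals. All were picked as windows that hold the motif, so they do not show that it is frequent among called genes. In all 7 Klk1b genes were called lower, and the windows of the others are not given. The Erg window is chr16:95459299-95459598 on the minus strand. The others are on the plus strand, at chr5:8566841-8567140 for Abcb1a, chr7:43966501-43966800 for Klk1b1, chr7:43975811-43976110 for Klk1b9 and chr7:43995627-43995926 for Klk1b11.
Erg: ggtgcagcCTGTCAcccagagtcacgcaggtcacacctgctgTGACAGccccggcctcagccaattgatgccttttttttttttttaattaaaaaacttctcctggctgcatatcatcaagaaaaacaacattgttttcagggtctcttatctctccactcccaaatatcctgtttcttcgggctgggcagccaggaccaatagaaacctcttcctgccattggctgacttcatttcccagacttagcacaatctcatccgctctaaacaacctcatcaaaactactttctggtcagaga
Abcb1a: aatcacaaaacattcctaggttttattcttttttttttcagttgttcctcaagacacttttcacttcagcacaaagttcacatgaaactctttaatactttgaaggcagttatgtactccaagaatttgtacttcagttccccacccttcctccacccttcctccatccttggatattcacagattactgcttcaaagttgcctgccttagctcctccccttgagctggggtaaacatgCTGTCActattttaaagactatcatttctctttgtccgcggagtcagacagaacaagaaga
Klk1b1: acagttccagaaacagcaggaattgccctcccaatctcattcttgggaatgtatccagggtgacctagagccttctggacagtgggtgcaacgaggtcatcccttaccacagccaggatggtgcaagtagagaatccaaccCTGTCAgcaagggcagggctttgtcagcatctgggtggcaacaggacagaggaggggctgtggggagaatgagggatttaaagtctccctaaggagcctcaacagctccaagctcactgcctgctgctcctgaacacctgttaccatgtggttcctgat
Klk1b9: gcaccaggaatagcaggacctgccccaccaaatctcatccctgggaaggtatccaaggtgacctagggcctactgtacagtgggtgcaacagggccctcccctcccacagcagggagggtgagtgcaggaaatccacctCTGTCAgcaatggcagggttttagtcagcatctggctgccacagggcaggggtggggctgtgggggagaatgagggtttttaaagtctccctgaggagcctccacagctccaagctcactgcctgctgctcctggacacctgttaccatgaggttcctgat
Klk1b11: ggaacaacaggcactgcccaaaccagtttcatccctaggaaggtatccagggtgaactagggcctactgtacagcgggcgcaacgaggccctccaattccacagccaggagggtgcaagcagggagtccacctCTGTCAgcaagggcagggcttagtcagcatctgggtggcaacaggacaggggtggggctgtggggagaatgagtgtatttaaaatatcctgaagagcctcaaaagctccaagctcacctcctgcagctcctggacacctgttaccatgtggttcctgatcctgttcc
The motif begins at base 142 of the Klk1b1 window, base 140 of the Klk1b9 window and base 134 of the Klk1b11 window. By global alignment Klk1b1 and Klk1b9 were identical at 83.3% of aligned columns, Klk1b1 and Klk1b11 at 80.0%, and Klk1b9 and Klk1b11 at 80.6%.

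Few genes of the growth and stress lists passed the test, where 0.913% of all genes rose and 0.999% fell. DNA replication and mitosis genes had 0 calls of 31, with a median of 0.00 and differences from -0.19 to 0.07, and 0 in each fit without 1 array. D cyclins, Cdk and Cdk inhibitor genes had 0 of 17 (median -0.02, from -0.19 to 0.09), hypoxia and glycolysis genes 0 of 26 (median -0.01) and amino acid stress genes 0 of 20 (median 0.03). Without week 4 number 2, where 2.24% of all genes rose and 2.55% fell, the cyclin list had 1 fall and the amino acid stress list 1 rise and 2 falls. Myc and ribosome biogenesis genes had 0 of 26 calls. Of the 26, 25 lay above 0, with a median of 0.15, where the median over all genes was -0.01. The largest was 0.31 (Rcl1, an RNA cyclase-like ribosome factor). The list's median shift was 0.02, 0.22, 0.21 and 0.15 on the HOXA9+MDHD arrays and -0.06, 0.06, 0.09 and -0.09 on the HOXA9+MIY arrays. Without week 4 number 2, 4 of the 26 rose (2.24% of all genes). Immediate early genes had 0 of 19, with a median of -0.29 at week 3 and of 0.23 at week 4. Interferon response genes had 1 fall of 26, Ifit2 (-0.73, adjusted p = 0.0143), and 1 rise and 2 falls without week 4 number 2. Of 24 p53 response and Bcl2 family genes 2 rose: Perp, a desmosome protein and p53 target, at 9.10, 9.39, 9.93 and 10.22 against 10.56, 9.95, 11.34 and 10.87 (1.02 ± 0.137, adjusted p = 0.00451), and Zmat3 (0.31, adjusted p = 0.0416, called in 2 of 12 fits without 1 array).

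Markers of other lineages a marrow culture could hold were read beside these results. Of all genes, 0.913% rose and 0.999% fell, or 2.24% and 2.55% without week 4 number 2. B lymphoid genes had 0 calls of 13 and T and NK genes 0 of 16, with list medians on single arrays of 6.95 to 7.17 and 7.24 to 7.47 over both groups. Megakaryocyte genes had 0 of 21 (median 0.12, and 4 rises and 1 fall without week 4 number 2). Dendritic and antigen presentation genes had 1 rise of 20, the lectin Mgl1 (0.59, adjusted p = 0.0246). Hbb-b1, adult beta globin, was the 1 call among 14 erythroid genes, at 10.14, 10.64, 10.46 and 11.16 against 12.54, 11.70, 12.97 and 11.34. It rose by 1.54 ± 0.307 (adjusted p = 0.0270), a call kept in 7 of 12 fits without 1 array, and by 1.54 with full-length Meis1, while Klf1, a defining erythroid factor, was at -0.07 (adjusted p = 0.807). The erythroid list had 2 rises without week 4 number 2. Globin copies are nearly identical, so which one gave the signal is uncertain.

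Stroma and endothelium genes counted 3 rises of 16 (0.913% of all genes), with a list median of 0.00. Over the 12 fits without 1 array 0 to 4 rose, the 4 being without week 4 number 2 (2.24% of all genes). Pdgfrb, the PDGF receptor beta of stromal cells, read 7.25, 7.29, 7.04 and 7.23 against 8.46, 8.19, 8.46 and 7.42 (0.93 ± 0.168, adjusted p = 0.0167). Ccdc80, a secreted matrix protein, read 7.76, 7.85, 7.22 and 7.74 against 9.36, 8.69, 10.19 and 8.42 (1.52 ± 0.303, adjusted p = 0.0269). Pecam1, the CD31 antigen of endothelium and of many blood cells, read 11.34, 11.44, 11.26 and 11.36 against 11.60, 11.47, 11.60 and 11.58 (0.21 ± 0.0463, adjusted p = 0.0387). The groups did not overlap for any of the 3. The calls of Pdgfrb, Ccdc80 and Pecam1 held in 8, 7 and 3 of 12 fits without 1 array. The other 13 members were not called, and their part in these results was not tested.

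**Figure D5:**
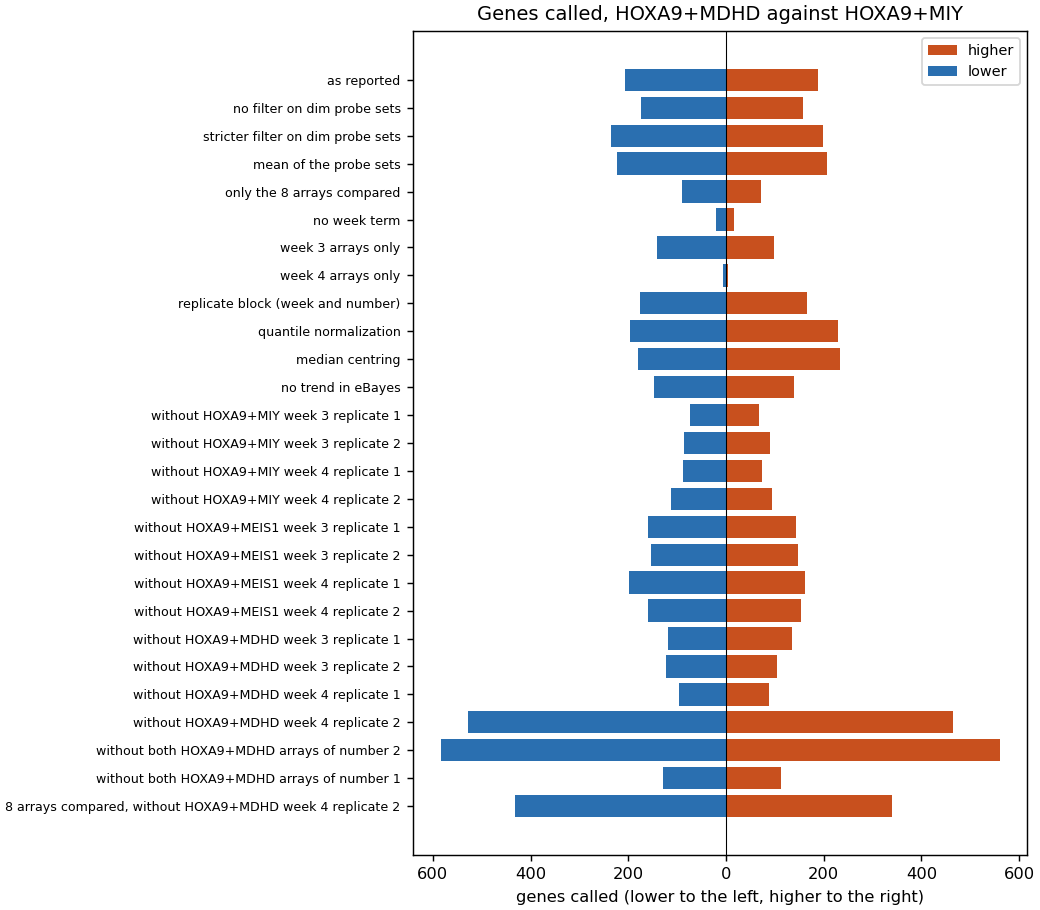
Number of genes called lower (bars to the left) and higher (bars to the right) between HOXA9+MDHD and HOXA9+MIY (x axis) in the reported fit and under each alternative (y axis). The bars are longest in the 3 settings that leave out week 4 number 2 of HOXA9+MDHD (992, 1143 and 771 calls in all) and shortest on week 4 arrays only (11) and with no week term (37).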

How the data were processed

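RNA of 12 mouse marrow cultures was hybridised to Affymetrix exon arrays, 1 array per sample. The deposited values are log2 values per probe set, made by the authors with Affymetrix Expression Console and RMA, per the submitters' processing notes (versions not given in the sources used here). Array medians over all 1256831 probe sets were 6.258 to 6.301. The precision is limited by how few arrays there are.

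The 318760 probe sets that name 1 symbol in the platform annotation were used (6684 named several and 931387 none listed), and those with a mean above 6.2592 (percentile 50 of the means) were kept. A median polish over the 233798 kept gave 20711 gene values (at most 50 iterations; 2 genes had not converged). Symbols are those of the annotation and can be old.

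All 12 arrays were fitted in limma 3.58.1 (R 4.3.3; lmFit, eBayes with trend, two-sided) with condition and week as terms, 8 residual and 4.09 prior degrees of freedom. HOXA9+MDHD was tested against HOXA9+MIY and against HOXA9+MEIS1, an interaction tested the weeks, and single probe sets were fitted over all 318760. The code was tested on simulated data.

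Named genes were the 15 largest rises and falls among called genes of 1 direction in all 4 pairs, the 10 smallest p-values each way, up to 4 called members per list (the 2 largest where none was called), the 6 each way with the largest called difference from full-length Meis1, and Hoxa9, Meis1 and Flt3, with unnamed gene models and small RNAs left out. Members, lists and rules were chosen with earlier results of these data known. Procr, Prom1, Gata2, Kit, Emr1, Mpo, S100a8, S100a9, Stfa2l1, Itgb2l, Lcn2, Camp, Pparg, Il6ra, Il3ra, Csf2rb and Klf1 were added from the lists after their values were seen. Alternatives were other filters, gene summaries, scalings and models, and leaving out arrays. In the reported test the number in the labels was not used to pair arrays between groups. It was used in the replicate block and in the count of pairs of the same week and number. That count also entered the choice of the largest rises and falls. Residual correlations of HOXA9+MDHD and HOXA9+MIY arrays of 1 week and number were -0.026, -0.311, -0.038 and -0.118. They cannot tell whether arrays of the same number at both weeks of a group came from the same culture, which was not tested. Tables were read with Python 3.11.15, pandas 2.3.3 and numpy 2.4.6, and plots drawn with matplotlib 3.10.9.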

Additional observations from a re-analysis of the deposited data

Results flagged for a closer look

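Single arrays far from the other 3 of their group were looked for in the HOXA9+MDHD and HOXA9+MIY arrays of the 99 named genes (198 groups of 4), by the gap to the nearest array over the group's range, against Dixon's critical value for 4 samples. There were 7 such arrays, where chance gives about 1 in 20 groups, so the number alone is not unusual. All 7 were HOXA9+MDHD arrays, and 5 were week 4 number 2. On that array Angpt1 stood at 7.90 (others 9.08 to 9.32) and Btla at 8.15 (others 9.16 to 9.32), below the rest. Bst1 stood at 10.46 (others 8.33 to 8.62), C5ar1 at 8.12 (others 7.07 to 7.23) and St6gal1 at 8.57 (others 7.70 to 7.82), above the rest. In all 5 the array lay nearer to HOXA9+MIY than the others did. Erg was highest on week 4 number 1, at 10.31 (others 9.90 to 9.93), and Pecam1 lowest on week 3 number 2, at 11.47 (others 11.58 to 11.60).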

How the results depend on the processing

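Calls between HOXA9+MDHD and HOXA9+MIY are given as all (higher, lower, and at least 2-fold). Against 396 (189, 207, 68), fitting only the 8 arrays compared gave 162 (72, 90, 44), no week term 37 (17, 20, 13), week 3 arrays only 240 (99, 141, 79) and week 4 arrays only 11 (4, 7, 10). Leaving out 1 array gave 140 to 992 (67 to 464, 73 to 528, 39 to 157), with the highest of each without HOXA9+MDHD week 4 number 2. Chosen after seeing the data, leaving out both HOXA9+MDHD arrays of number 2 gave 1143 (560, 583, 170), both of number 1 242 (113, 129, 52), and the 8 arrays without week 4 number 2 771 (339, 432, 153). The cause was not tested, beyond fewer arrays. The replicate block of week and number gave 341 calls, 305 of them among the 396. Filters, the mean of the probe sets, quantile normalization, median centring and no trend gave 287 to 434. The higher share of calls, 47.7%, was 53.9% after quantile normalization and 56.4% after median centring.

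The week difference gave 0 to 30 calls without 1 array. HOXA9+MEIS1 against HOXA9+MDHD gave 539 on its own 8 arrays. Of 75 called genes named, 7 kept the call on week 4 arrays only, 16 with no week term, 41 without both number 1 arrays, 46 on the 8 arrays and 74 without week 4 number 2. Signs turned for Fpr2 (0.23) and Cd2 (-0.038) with the stricter filter, Cd2 (-0.042) without both number 2 arrays, Ccnd1 (0.0028) without both number 1 arrays, Dusp1 (0.37) on week 4 arrays and Rrm2 (0.015) without HOXA9+MIY week 4 number 1, with -0.43 to 0.015 over the fits without 1 array. Apart from Fpr2 none of these was called. Dim probe sets near the filter level limit the size of rises such as that of Gria2.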

Other observations

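Families of neighbouring or closely related genes were counted after their values were seen, so they are a description with no test of the family. Of all genes, 0.913% rose and 0.999% fell. Among 10 measured Klk1b kallikreins 7 fell and 0 rose (median -1.02), and the other 3, Klk1b16, Klk1b21 and Klk1b26, each rested on 1 probe set and lay between -0.22 and 0.02. Pilra, Pilrb1 and Pilrb2, paired immunoglobulin-like receptors of myeloid cells, were all called lower (-0.88, -0.77 and -0.76). Of 10 Ly6 surface protein genes 3 fell, Ly6a, Ly6c1 and Ly6i, and 0 rose, and Ly6g, the neutrophil antigen, was at -0.86 without passing the test (adjusted p = 0.310).

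Other families rose. Ctla2a and Ctla2b, cathepsin inhibitors, were called higher by 1.18 and 1.13. Ctla2a read 7.40, 7.62, 7.80 and 7.94 in HOXA9+MIY and 8.93, 8.20, 9.66 and 8.70 in HOXA9+MDHD, without overlap. Of 8 Serpina3 serine protease inhibitor genes 3 rose, Serpina3f (1.12), Serpina3g (0.86) and Serpina3h (0.46), and 0 fell. Serpina3f read 7.98, 8.23, 7.86 and 8.00 against 9.03, 9.63, 9.53 and 8.38, and was at 0.40 with full-length Meis1 (difference between the forms adjusted p = 0.0730). Of 7 Akr1c reductases Akr1c12 (1.07) and Akr1c18 (1.20) rose. Signal shared between near-identical members was not tested in any of these families.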
